A study of Homo sapiens with 8 samples.

Results

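The 10 genes described here are factors that drive the epithelial-mesenchymal transition and the adhesion markers by which it is usually read: SNAI1, SNAI2, ZEB1, ZEB2, TWIST1, VIM, CDH1, CDH2, EPCAM and ESRP1. They were taken by symbol from a table of 58870 genes, and each symbol matched 1 row. The libraries came from Panc 10.05, a long-established line of human pancreatic ductal adenocarcinoma cells, in a study of whether ELAPOR1 induces the classical/progenitor subtype of this cancer. Of the 8 RNA-seq libraries, 4 were labelled Panc 10.05 control and 4 Panc 10.05 ELAPOR1 transgene (ELAPOR1 overexpression). The labels give no vector or promoter for the transgene, do not say what the control cells received, and do not say whether a line was 1 clone, and no other treatment is named. Nor do they say whether the 4 libraries of a group were separate cultures, so p-values measure only the spread between these libraries.

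In the epithelial-mesenchymal transition, epithelial cells loosen their junctions and take on traits of migratory cells. The zinc finger proteins SNAI1, SNAI2, ZEB1 and ZEB2 bind E-box sequences and repress epithelial genes such as CDH1, and TWIST1 is a helix-loop-helix factor that acts upstream of several of them. CDH1 (E-cadherin) and EPCAM hold epithelial cells together, ESRP1 is an RNA-binding protein that sets epithelial splice forms, and CDH2 (N-cadherin) and VIM (vimentin) are the usual mesenchymal readouts. In pancreatic cancer, loss of the epithelial markers is known from poorly differentiated tumours.

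Library totals ran from 16558597 to 18128732 counts in control and from 13765504 to 17258149 in ELAPOR1 (exact permutation p = 0.143, two-sided). The overexpressed gene, listed under its older symbol KIAA1324, had between 1 and 4 counts in each control library and between 5910 and 7368 in each ELAPOR1 library. The labelled cell type was checked with 6 ductal epithelial markers, all of them tested, which summed to 11500 to 12800 CPM (counts scaled to 1000000 per library) in control and 10600 to 11000 in ELAPOR1. Of these, KRT7 and KRT19 rose and KRT8, KRT18, MUC1 and ITGB4 fell. Fibroblast markers (6 genes) summed to 2.95 to 4.38 CPM in control and 2.77 to 3.19 in ELAPOR1, with DCN and LUM at 0 in all 8 libraries. Endothelial markers (5 genes) summed to 1.65 to 2.13 and 0.576 to 0.998 CPM, with CDH5 at 0. Immune markers (6 genes) summed to 82.0 to 88.5 and 73.3 to 79.2 CPM, nearly all of it CD68, with CD3E and MS4A1 at 0.

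In ELAPOR1 libraries the repressors SNAI1, SNAI2 and ZEB1 rose by 2.07, 1.57 and 1.34 times in mean CPM, CDH1 rose by 7.99%, ESRP1 fell by 15%, and EPCAM did not pass the test. A gene was called changed at a Benjamini-Hochberg adjusted p under 0.05 in edgeR's quasi-likelihood test. Only 6 of the 10 genes had enough counts to be tested. Of these, 5 were called, 4 of them higher and 1 lower, where 44.7% of all 13860 tested genes were called (22.6% higher and 22.1% lower). The other 4 genes, ZEB2, TWIST1, VIM and CDH2, were at or near 0 counts, so the genes tested are those that Panc 10.05 expresses. For 4 of the 6 tested genes, control and ELAPOR1 libraries were fully apart in CPM, against a background of 39.2% of tested genes. In bulk libraries, fewer cells expressing a gene and less RNA per cell cannot be told apart.

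**Figure D1:**
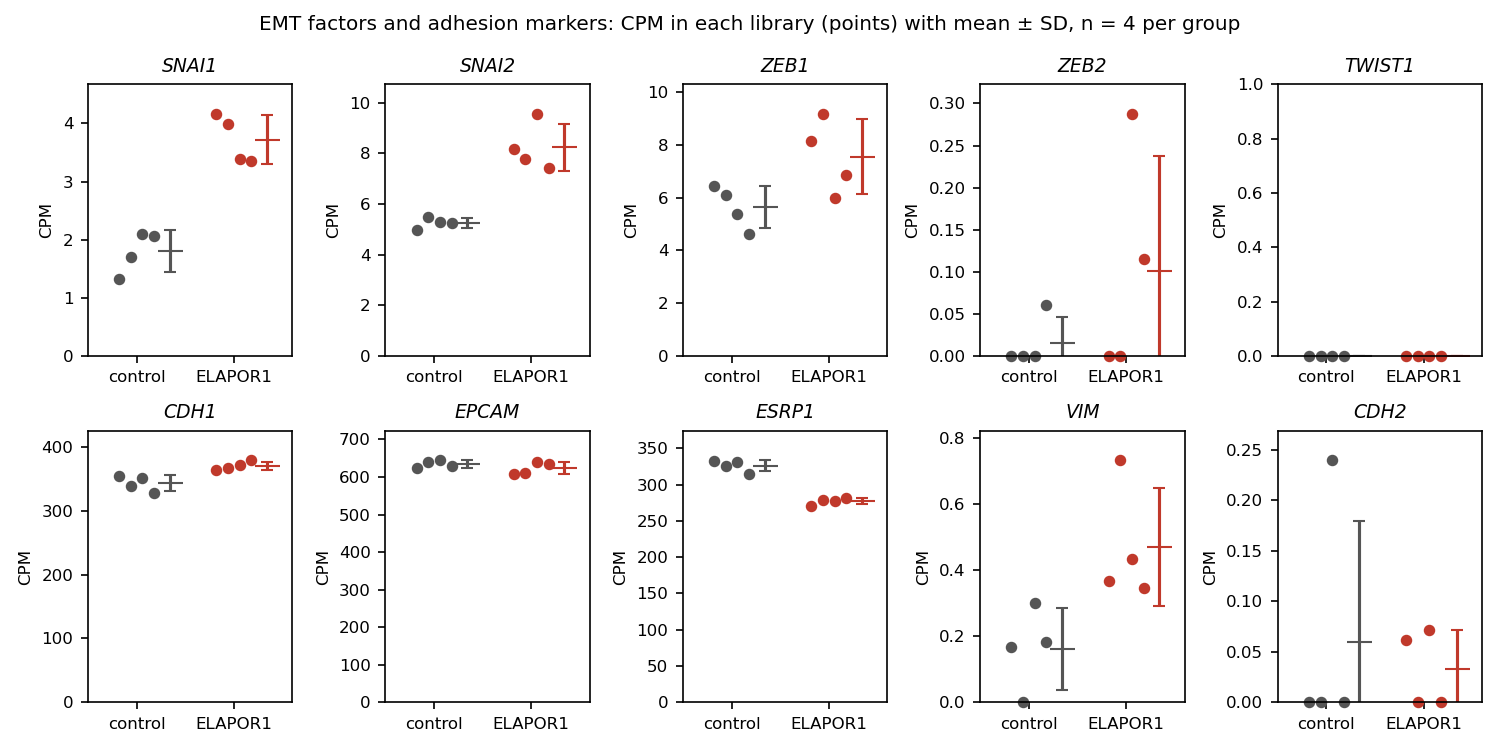
CPM of the 10 genes in each library, with control and ELAPOR1 libraries as separate points, bars at the group means and error bars of 1 SD (n = 4 each). SNAI1, SNAI2 and CDH1 lie higher and ESRP1 lower in all 4 ELAPOR1 libraries, ZEB1 and EPCAM overlap between groups, and ZEB2, TWIST1, VIM and CDH2 sit at or near 0.

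SNAI1, the Snail repressor of CDH1 (ENSG00000124216.4, GRCh38 chr20:49982999-49988886, plus strand), had 24, 29, 35 and 34 counts in control replicates 1 to 4 and 68, 60, 47 and 58 in ELAPOR1 replicates 1 to 4. Scaled to depth these were 1.33, 1.71, 2.10 and 2.07 CPM against 4.17, 3.99, 3.38 and 3.35 CPM. The lowest ELAPOR1 library stood above the highest control library, so the groups did not overlap. The mean rose from 1.80 ± 0.361 to 3.72 ± 0.422 CPM (SD, n = 4 each). The log2 fold change was 1.05 (SE 0.205, 95% interval 0.63 to 1.47, edgeR adjusted p = 7.8e-05). A change of at least this size was seen in 298 of the 13860 tested genes (2.15%). Its counts were low, and SNAI1 was called without each library in turn, at log2 fold changes of 0.918 to 1.129.

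SNAI2, the related repressor Slug (ENSG00000019549.12, GRCh38 chr8:48917604-48921740, minus strand), had 90, 93, 88 and 86 counts in control and 133, 117, 133 and 129 in ELAPOR1 libraries. In CPM, the control libraries lay close together at 4.99, 5.49, 5.27 and 5.24, and the ELAPOR1 libraries at 8.16, 7.78, 9.57 and 7.44. Every ELAPOR1 library was above every control library, and the spread was wider in ELAPOR1. The mean rose from 5.25 ± 0.204 to 8.24 ± 0.937 CPM (SD, n = 4 each). The log2 fold change was 0.65 (SE 0.124, 95% interval 0.39 to 0.90, edgeR adjusted p = 6.2e-05), a size reached by 1003 tested genes (7.24%).

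ZEB1, a zinc finger and homeodomain repressor (ENSG00000148516.21, GRCh38 chr10:31318495-31529814, plus strand), had 116, 103, 90 and 76 counts in control and 133, 138, 83 and 119 in ELAPOR1 libraries. In CPM these were 6.43, 6.08, 5.39 and 4.63 against 8.16, 9.18, 5.97 and 6.86. ELAPOR1 replicate 3 lay inside the control range, and the other 3 ELAPOR1 libraries lay above it. The mean rose from 5.63 ± 0.794 to 7.55 ± 1.41 CPM (SD, n = 4 each). On the log2 scale this was 0.42 (SE 0.139, 95% interval 0.14 to 0.70, edgeR adjusted p = 0.0135). This call depended on single libraries. It was lost without control replicate 4 (0.338, edgeR adjusted p = 0.0520), without ELAPOR1 replicate 1 (0.380, adjusted p = 0.051) and without ELAPOR1 replicate 2 (0.316, adjusted p = 0.0897). Over the alternatives other than a test against a 1.5-fold change, the adjusted p of ZEB1 spanned 0.00434 to 0.0897. The antisense gene ZEB1-AS1 overlaps the start of ZEB1 and held 648 counts in control and 589 in ELAPOR1 libraries. It was not called (log2 fold change -0.02, edgeR adjusted p = 0.912), and since the use of strand in counting is not stated, reads in the overlap cannot be told apart.

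SNAI and ZEB proteins recognise the E-box CACCTG, which reads CAGGTG on the other strand. The 250 bases before the most upstream RefSeq start were searched for it on both strands; 17.5% of 27305 genes with an entry hold it. Among the 10 genes, ZEB1, ZEB2, VIM and CDH2 have an entry, and only the ZEB1 stretch holds the motif, as CAGGTG at -57 to -52 counted back from the start. That stretch (RefSeq, GRCh38.p14, chr10:31318167-31318416, plus strand) is shown because ZEB1 is the tested repressor with an entry, with the E-box in capitals, 5′ to 3′.
ZEB1: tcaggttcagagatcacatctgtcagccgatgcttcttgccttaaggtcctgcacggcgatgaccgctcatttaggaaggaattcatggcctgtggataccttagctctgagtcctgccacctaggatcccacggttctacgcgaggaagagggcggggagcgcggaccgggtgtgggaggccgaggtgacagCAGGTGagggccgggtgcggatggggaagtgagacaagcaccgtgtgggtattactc
A match describes letters in this window and not binding.

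CDH1, the adhesion receptor of adherens junctions (ENSG00000039068.19, GRCh38 chr16:68737225-68835548, plus strand), had 354, 338, 351 and 328 CPM in control and 364, 366, 371 and 379 CPM in ELAPOR1 libraries. All 4 ELAPOR1 libraries exceeded the highest control library, by a narrow margin. The mean rose from 343 ± 12.1 to 370 ± 6.73 CPM (SD, n = 4 each), and the log2 fold change was 0.11 (SE 0.0302, 95% interval 0.05 to 0.17, edgeR adjusted p = 0.00294). This change was small beside the others in these libraries, since 9194 tested genes (66.3%) had a log2 fold change at least as large in size. It was a rise in the same libraries in which the 3 repressors of CDH1 were higher.

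EPCAM, the epithelial cell adhesion molecule (ENSG00000119888.10, GRCh38 chr2:47345158-47387601, plus strand), was the most abundant of the 10 genes. It had 623, 640, 645 and 628 CPM in control and 607, 611, 640 and 634 CPM in ELAPOR1 libraries. The groups overlapped, with 2 ELAPOR1 libraries below the lowest control library. The means were 634 ± 10.6 and 623 ± 16.2 CPM (SD, n = 4 each). The 95% interval of its log2 fold change ran from -0.08 to 0.03 (edgeR adjusted p = 0.491), so a change within those bounds was not resolved.

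ESRP1, which promotes epithelial splice forms of genes such as FGFR2 and CD44 (ENSG00000104413.17, GRCh38 chr8:94641074-94707466, plus strand), had 333, 325, 331 and 315 CPM in control and 271, 279, 277 and 281 CPM in ELAPOR1 libraries. Every ELAPOR1 library was below every control library. The mean fell from 326 ± 7.70 to 277 ± 4.07 CPM (SD, n = 4 each). The log2 fold change was -0.23 (SE 0.0295, 95% interval -0.29 to -0.17, edgeR adjusted p = 4.8e-08), the smallest adjusted p among the 6 tested genes. A change of this size or more was seen in 5301 tested genes (38.2%). Splice forms cannot be read from gene-level counts.

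**Figure D2:**
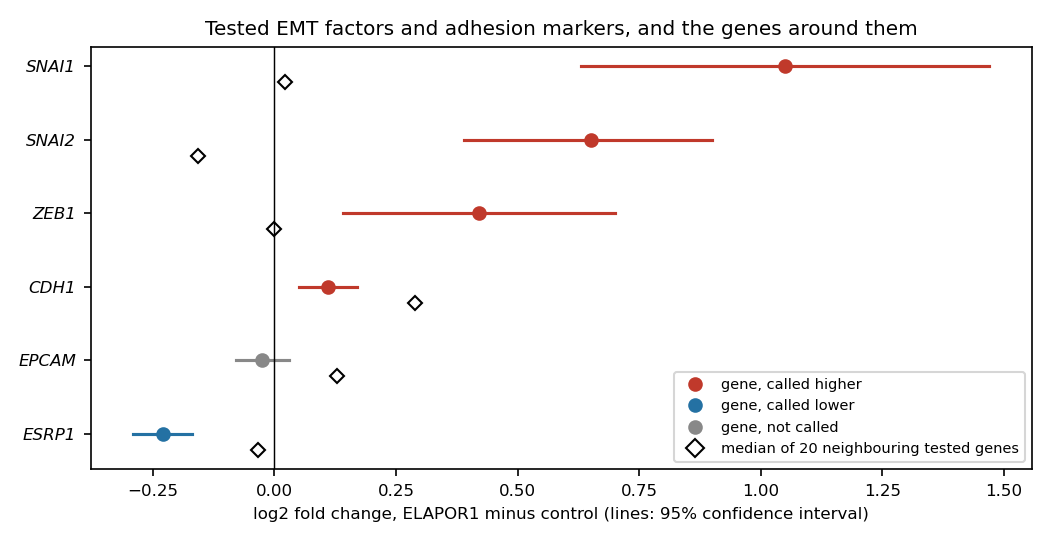
Log2 fold changes (ELAPOR1 against control) of the 6 tested genes with 95% intervals, beside the median log2 fold change of the 10 tested genes on each side of each. SNAI1 (1.05), SNAI2 (0.65) and ZEB1 (0.42) are higher with wide intervals, while CDH1 (0.11), EPCAM and ESRP1 (-0.23) have narrow ones.

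VIM, the intermediate filament protein of mesenchymal cells (ENSG00000026025.16, GRCh38 chr10:17228259-17237593, plus strand), had 3, 0, 5 and 3 counts in control and 6, 11, 6 and 6 in ELAPOR1 libraries. It failed the filter on low counts. The 11 control counts and 29 ELAPOR1 counts gave means of 0.162 ± 0.123 and 0.470 ± 0.179 CPM (SD, n = 4 each). The lowest ELAPOR1 library was above the highest control library, and the exact two-sided permutation p was 0.0286, the smallest that 4 against 4 libraries can give. Tested with no filter in edgeR, its log2 fold change of 1.49 did not pass (adjusted p = 0.0991). The antisense gene VIM-AS1 overlaps VIM and had 2, 1, 1 and 1 counts in control and 5, 3, 2 and 3 in ELAPOR1 libraries, so strands cannot be told apart here either. At these levels VIM was barely detected in either group.

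CDH2, the cadherin that often replaces CDH1 in mesenchymal cells (ENSG00000170558.9, GRCh38 chr18:27950966-28177446, minus strand), had 0, 0, 4 and 0 counts in control and 1, 0, 1 and 0 in ELAPOR1 libraries (exact permutation p = 1). ZEB2, the relative of ZEB1 (ENSG00000169554.20, GRCh38 chr2:144364364-144524583, minus strand), had 0, 0, 0 and 1 against 0, 0, 4 and 2 (exact permutation p = 0.429). TWIST1 (ENSG00000122691.13, GRCh38 chr7:19020991-19117672, minus strand) had 0 counts in all 8 libraries, which allows up to 0.0229 CPM over the 8 libraries together, counting error only. A difference in CDH2, ZEB2 or TWIST1 was not detectable at this depth, where 3 counts in a library equal 0.165 to 0.218 CPM.

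Levels were compared between genes per kilobase of exon. EPCAM stood at 252 CPM per kb in control and 247 in ELAPOR1 libraries. ESRP1 stood above CDH1 in control libraries, at 66.8 ± 1.58 against 55.5 ± 1.95 CPM per kb (SD, n = 4 each). In ELAPOR1 libraries the order was turned, at 56.8 ± 0.835 for ESRP1 and 59.9 ± 1.09 for CDH1, and on the longest coding transcript it also turned (85.6 and 70.1, then 72.8 and 75.7 CPM per kb). Without division by length, CDH1 stood above ESRP1 in both groups (343 and 326 CPM in control, 370 and 277 in ELAPOR1). The order in control thus depends on whether counts are divided by length. The factors lay far below EPCAM, ESRP1 and CDH1: SNAI2 at 1.55 and 2.43, SNAI1 at 1.07 and 2.21, and ZEB1 at 0.651 and 0.872 CPM per kb, in control and ELAPOR1. VIM followed at 0.0314 and 0.0910 CPM per kb.

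Within each library, the ratio of CDH1 to ESRP1 counts, which needs no scaling between libraries, ran from 1.04 to 1.06 in control and from 1.31 to 1.35 in ELAPOR1 libraries. Since CDH1 lay higher and ESRP1 lower in every ELAPOR1 library, this separation follows from the values above and is no separate evidence. The ratio of CDH1 to EPCAM counts ran from 0.522 to 0.569 in control and from 0.580 to 0.599 in ELAPOR1 libraries. Summed, SNAI1, SNAI2 and ZEB1 came to 11.9 to 13.3 CPM in control and 17.7 to 21 CPM in ELAPOR1 libraries. Summed, CDH1, EPCAM and ESRP1 came to 1270 to 1330 and 1240 to 1290 CPM, ranges that overlap.

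Genes beside each tested gene in genome order were set next to it, since stretches of chromosomes shifted together in these libraries. The 20 tested genes around CDH1 (10 on each side) had a median log2 fold change of 0.290. Their median difference from the control mean in log2(CPM + 1), taken per ELAPOR1 library, had an SD of 0.0224 over the 4 libraries. Of these 20, 14 were called higher and 1 lower. CDH1 itself, at 0.11, lay under the median of 0.290, and so did CDH3 (P-cadherin), 101.0 kb away, at -0.05 (edgeR adjusted p = 0.416). ESRP2, the paralogue of ESRP1, lies 508.1 kb from CDH1 and had a log2 fold change of 0.18 and passed the test (SE 0.0375, adjusted p in edgeR 1.3e-04). The part of this stretch in the CDH1 and ESRP2 values was not tested. Around SNAI2 the median was -0.158, with 10 of 20 neighbours called lower and 3 higher, while SNAI2 rose. Medians around the other genes were 0.022 for SNAI1, 0.000 for ZEB1, 0.128 for EPCAM and -0.033 for ESRP1.

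**Figure D3:**
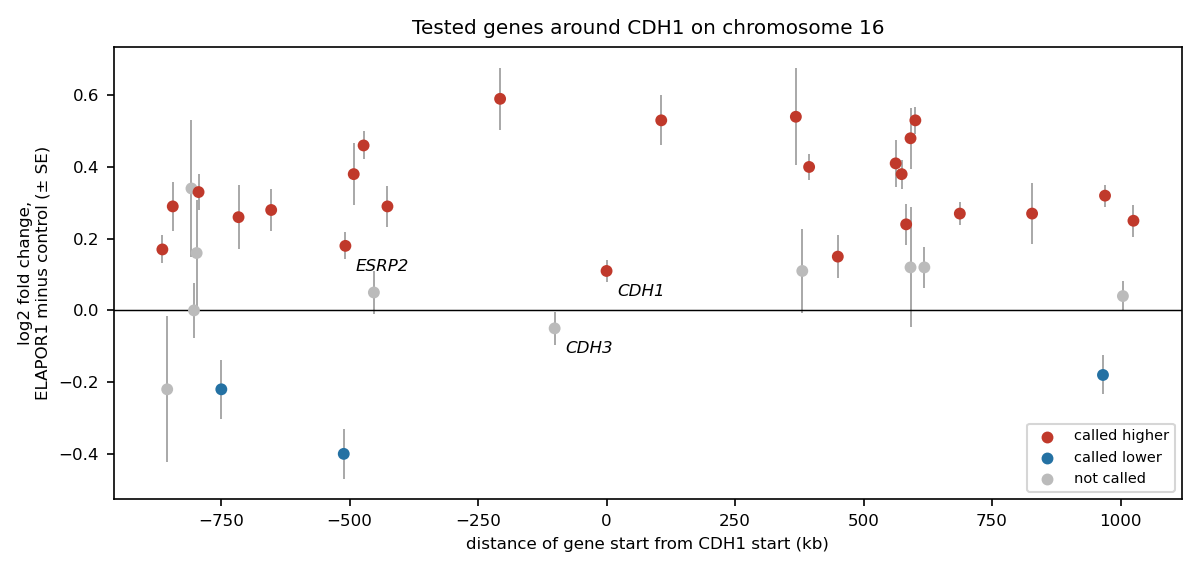
Log2 fold changes (ELAPOR1 against control) of tested genes around CDH1, against the distance of each gene's start from that of CDH1 in kilobases, with error bars of 1 SE; 37 genes are drawn and 4 with an SE of 0.3 or more are left out. Most neighbours lie above 0, and CDH1 (0.11) and CDH3 (-0.05) lie below the median of the 20 nearest (0.290).

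The wider programme was followed in 13 lists of 167 genes, of which 121 were tested. Group levels below are means ± SD of 4 libraries. Of the 121, 65 were called, 34 higher and 31 lower, where 44.7% of all tested genes were called (22.6% higher and 22.1% lower). Each list count below reads against those shares, and several lie near them. The median log2 fold change over the 121 genes was -0.001, beside 0.001 over all tested genes. Polarity and junction genes, many of them known targets of the repressors, were mostly lower: 13 of 19 fell and TJP1, a tight junction scaffold, rose (median -0.24). With single libraries left out, 11 to 12 were called lower and 1 higher. Of these calls, ST14 lay nearest the threshold (edgeR adjusted p = 0.0489), and control and ELAPOR1 libraries overlapped for ST14, CLDN1 and TJP1. PRSS8, a membrane serine protease of epithelia, went from 216 ± 16 to 126 ± 0.862 CPM (edgeR log2 fold change -0.78 ± 0.0398 SE, adjusted p = 5.1e-16). TJP3, a tight junction scaffold, went from 52.6 ± 2.26 to 29.3 ± 2.69 CPM (-0.85 ± 0.0594 SE, edgeR adjusted p = 8.9e-14). The others that fell were CRB3, LLGL2, OCLN, CLDN1, CLDN3, CLDN4, RAB25, ST14, SPINT1, MUC1 and AP1M2. These genes fell in the libraries in which CDH1 rose and EPCAM did not pass the test.

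The E-box search was repeated in these promoters. Of 13 polarity and junction genes with an entry, 7 hold CACCTG on either strand (53.8%, beside 17.5% of all genes), among them 5 of the 10 with an entry that fell and TJP1, which rose. This list had the highest share of the 13 lists searched, and the other 12 ran from 0% to 37.5%, some with as few as 3 genes with an entry. Many genes of this list are known targets of the repressors, and the lists were chosen with earlier results known. Its share is therefore a description and carries no test. The 17.5% covers all genes with an entry, expressed or not. Of the EPCAM relatives, partners and proteases, also lower, 1 of 7 with an entry holds the motif (14.3%), and 0 of the 4 with an entry that fell. Shown are CRB3, a polarity protein with 5 matches, and AP1M2, an epithelial sorting adaptor with 3, both chosen after their matches were counted, and TJP3, which has none in this window (RefSeq, GRCh38.p14; CRB3 chr19:6464021-6464270, plus strand; AP1M2 chr19:10587313-10587562, minus strand; TJP3 chr19:3708134-3708383, plus strand). E-boxes are in capitals, 5′ to 3′.
CRB3: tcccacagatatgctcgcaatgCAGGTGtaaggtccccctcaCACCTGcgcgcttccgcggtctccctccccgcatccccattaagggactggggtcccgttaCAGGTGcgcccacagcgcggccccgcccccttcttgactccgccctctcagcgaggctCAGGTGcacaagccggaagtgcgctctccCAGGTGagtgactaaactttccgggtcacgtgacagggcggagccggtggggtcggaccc
AP1M2: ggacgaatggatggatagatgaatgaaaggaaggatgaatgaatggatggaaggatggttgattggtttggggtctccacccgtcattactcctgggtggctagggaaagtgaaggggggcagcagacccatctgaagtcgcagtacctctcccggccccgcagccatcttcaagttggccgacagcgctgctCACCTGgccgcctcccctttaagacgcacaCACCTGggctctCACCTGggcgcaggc
TJP3: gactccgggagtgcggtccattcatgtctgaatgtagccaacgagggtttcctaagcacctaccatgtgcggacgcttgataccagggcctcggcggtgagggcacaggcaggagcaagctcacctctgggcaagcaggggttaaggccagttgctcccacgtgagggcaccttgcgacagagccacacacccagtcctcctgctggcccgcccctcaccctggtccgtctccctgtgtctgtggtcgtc
TJP3, with no match in this window, fell most of the 19 genes, and PATJ, which holds the motif, did not pass the test. Sites outside the window were not searched, and whether the motif has a part in any of these changes was not tested.

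Relatives, partners and proteases of EPCAM were also lower. Of 9 tested, 6 fell, among them CLDN7, CD9, ADAM10, BACE2 and FHL2 (median -0.23). None was called higher by edgeR, DESeq2 or limma, and none at an unadjusted p under 0.05. CLDN7, a claudin that binds EPCAM, went from 233 ± 12.1 to 165 ± 2.62 CPM (edgeR log2 fold change -0.50 ± 0.0348 SE, adjusted p = 8.0e-14), though it overlaps ELP5 on the other strand.

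Genes of cadherin-catenin and nectin adhesion moved both ways, with 4 of 12 higher (CTNNB1, JUP, VCL and NECTIN1), 2 lower (CTNNA1 and NECTIN4) and a median of 0.08. NECTIN4 went from 29.4 ± 1.27 to 21.9 ± 2.34 CPM (edgeR log2 fold change -0.43, adjusted p = 8.9e-06) and NECTIN1 from 17.7 ± 1.75 to 23.6 ± 1.42 CPM (0.41, adjusted p = 3.7e-05). Of 13 other cadherins only 3 were tested. CDH24, a type II cadherin, rose from 18 ± 0.751 to 27.3 ± 2.17 CPM (0.60 ± 0.0721 SE, edgeR adjusted p = 1.8e-08). In the desmosome list 3 of 9 tested genes rose (PKP3, PPL and PERP) and 2 fell (DSC2 and EVPL; median 0.04). Periplakin (PPL) rose by 0.29 on the log2 scale (edgeR adjusted p = 2.2e-09). DSC2 (-0.21, adjusted p = 0.0166) lost its call without control replicate 3 or ELAPOR1 replicate 1 or 2, at adjusted p up to 0.0853. Its range was 0.00639 to 0.0853 over the alternatives other than the test against a 1.5-fold change. The desmosome counts changed to 5 higher without control replicate 1.

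Of 8 splicing regulators, 4 rose (ESRP2, PTBP1, HNRNPM and SRSF1) and RBFOX2 fell, while ESRP1 was lower; their median was 0.13. PTBP1, a repressor of exon inclusion, rose from 479 ± 7.14 to 612 ± 12.8 CPM (edgeR log2 fold change 0.35 ± 0.0276 SE, adjusted p = 1.3e-12). HNRNPM, which is known to compete with ESRP1 on shared exons, rose from 299 ± 9.95 to 379 ± 8.11 CPM (0.34 ± 0.0303 SE, edgeR adjusted p = 2.6e-11). RBFOX2 was no longer called without ELAPOR1 replicate 1. Among 7 genes with exons regulated by ESRP proteins, CD44, ENAH and ARHGEF11 rose and SCRIB fell (median 0.14). ENAH rose by 0.25 (edgeR adjusted p = 2.3e-05) and ARHGEF11 by 0.22 on the log2 scale (adjusted p = 1.9e-04), as gene totals that say nothing of their exons.

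Among epithelial transcription factors, 3 of 11 tested genes were called, KLF5 higher and ELF3 and FOXA1 lower (median -0.07). ELF3, an epithelial ETS factor, fell from 86.5 ± 5.62 to 55.8 ± 2.55 CPM (edgeR log2 fold change -0.63 ± 0.0482 SE, adjusted p = 7.4e-13), though it overlaps ELF3-AS1. FOXA1, a forkhead factor, had 11.3 ± 2.28 and 8.99 ± 0.755 CPM, groups that overlap. Its fold change of -0.33 (edgeR adjusted p = 0.0217) lost its call without control replicate 1 or 2 or ELAPOR1 replicate 1 or 3, at adjusted p up to 0.145. Its range was 0.0038 to 0.145 over the alternatives other than the test against a 1.5-fold change. KLF5 lost its call without control replicate 3 or 4 or ELAPOR1 replicate 3. GRHL1, GRHL2, GRHL3, OVOL1 and OVOL2 were tested and did not pass; GRHL2 and the OVOL proteins are known to counter ZEB1 in epithelia.

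Of 15 other transition factors, 8 were tested. HMGA2, a chromatin protein that raises SNAI1 and TWIST1 transcription, rose from 30.5 ± 1.85 to 51.9 ± 2.14 CPM (edgeR log2 fold change 0.77 ± 0.0559 SE, adjusted p = 2.0e-13). ETS1 rose and SOX4 fell, the latter from 20.2 ± 1.42 to 15.7 ± 1.74 CPM (-0.37, adjusted p = 4.6e-04). Of 18 tested cofactors and turnover enzymes of the SNAI and ZEB proteins, EZH2, SUZ12, HDAC1 and CTBP2 rose, HDAC2 and GSK3B fell, and 12 did not pass (median 0.02). EZH2, the catalytic subunit of the polycomb complex, rose from 74.9 ± 3.50 to 92.1 ± 4.02 CPM (0.30, edgeR adjusted p = 7.4e-07). GSK3B, a kinase that marks SNAI1 for degradation, fell from 167 ± 8.94 to 146 ± 4.92 CPM (-0.19, adjusted p = 1.0e-04). Of the 2 lower calls, HDAC2 lay nearer the threshold (edgeR adjusted p = 0.0414). The 2 were reduced to 1 without control replicate 1 or 4 or any 1 ELAPOR1 library. The same held with DESeq2, total count scaling, no filter beyond 1 count, the replicate block and a threshold of 0.01. Under the test against a 1.5-fold change, 0 were called lower.

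Of 21 mesenchymal matrix and surface genes, 11 had too few counts to be tested, among them SPARC, COL1A2, COL3A1, POSTN and FAP. Of the 10 tested, 5 rose, among them FN1, TGFBI, AXL and ITGA5, and MMP14 fell (median 0.16). MMP14, a membrane metalloprotease, fell from 1.93 ± 0.258 to 0.515 ± 0.149 CPM (edgeR log2 fold change -1.90 ± 0.316 SE, adjusted p = 7.6e-06). Its counts were low, at 32, 34, 28 and 37 in control and 8, 11, 6 and 7 in ELAPOR1 libraries. It thus passed the filter through the control libraries, where it was higher. Beside these, the summed fibroblast markers were at 2.95 to 4.38 CPM in control and 2.77 to 3.19 CPM in ELAPOR1 libraries.

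The filament relatives of VIM rose where tested, 6 of 6 (NES, SYNM, LMNA, LMNB1, LMNB2 and the linker PLEC; median 0.35), and none was lower by edgeR, DESeq2 or limma or at an unadjusted p under 0.05. The 8 untested genes, among them DES, GFAP and the neurofilaments, had too few counts. NES (nestin), a filament protein of progenitor cells, rose from 1.35 ± 0.152 to 5.94 ± 0.547 CPM (edgeR log2 fold change 2.13 ± 0.186 SE, adjusted p = 1.9e-11). SYNM (synemin) rose from 5.90 ± 0.537 to 9.91 ± 0.789 CPM (0.74 ± 0.115 SE, edgeR adjusted p = 2.1e-06). Of 5 antisense and miRNA host transcripts, ZEB1-AS1 and MIR200CHG, host of miRNAs that target ZEB1, were tested. Neither was called by edgeR, DESeq2 or limma, and neither had an unadjusted p under 0.05.

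**Figure D4:**
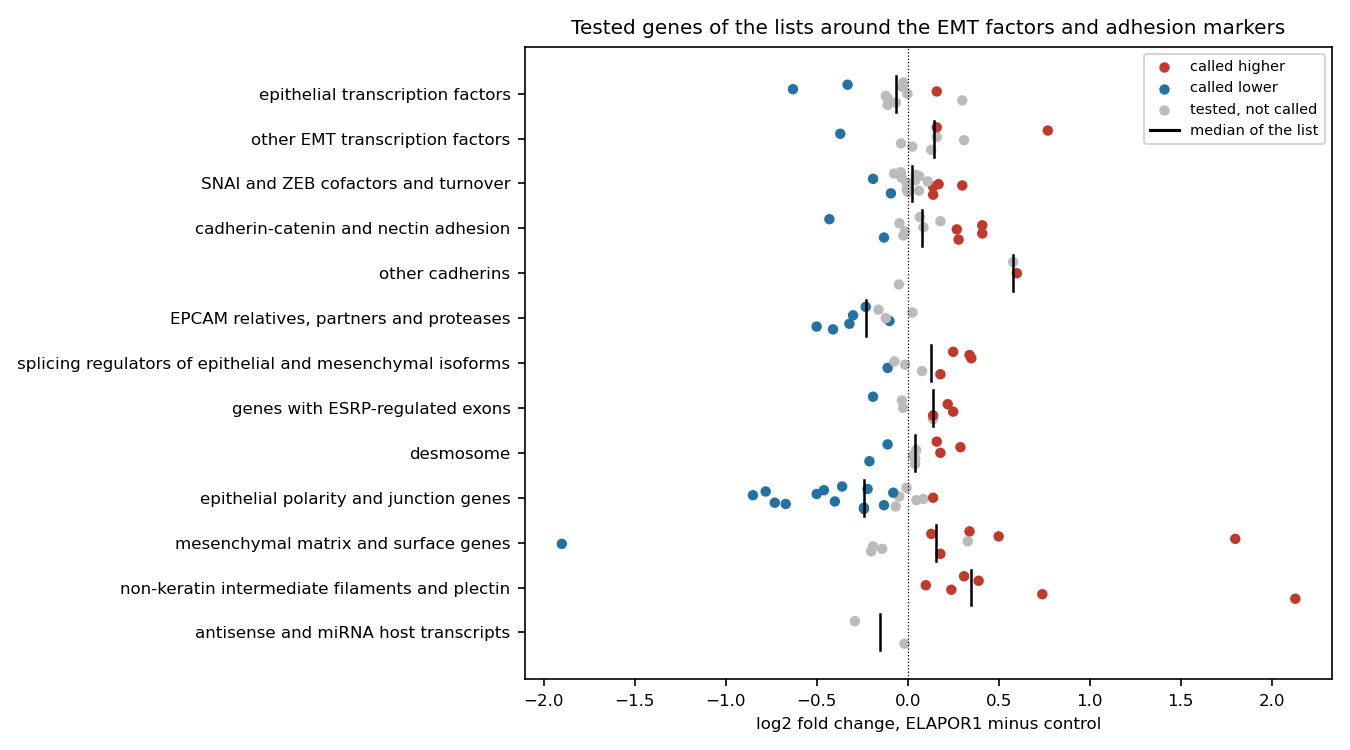
Log2 fold changes (ELAPOR1 against control) of the tested genes in each list, with called and uncalled genes marked and the list medians drawn. Polarity and junction genes (median -0.24) and EPCAM relatives (median -0.23) lie mostly below 0, and the filament list (median 0.35) above it.

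For each tested gene, the gene most like it over the 8 libraries was found by Pearson r of log2(CPM + 1) among 10703 genes averaging 5 CPM or more. The nearest were EIF6 for SNAI1 (r = 0.996), ZSCAN12 for SNAI2 (0.988), LINC02535 for ZEB1 (0.976), PSME4 for CDH1 (0.990), ZRSR2 for EPCAM (0.953) and OIP5-AS1 for ESRP1 (0.996). The libraries share their 2 groups, and each r is the highest among 10703 genes over only 8 libraries, so these values describe the pattern and carry no test. LINC02535 and ZRSR2 were themselves not called (edgeR adjusted p = 0.378 and 0.265).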

How the data were processed

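RNA-seq was analysed in 8 libraries of Panc 10.05, 4 control and 4 ELAPOR1. The authors deposited 1 table of expected counts per gene, unscaled between libraries. The submitters' processing notes name cutadapt, STAR, RSEM, DESeq2 and hg38, with no versions or roles, and strand use is not given in the sources used here. Of the nonzero values 15.0% were not whole, so the expected counts were rounded. Genes were filtered with filterByExpr, scaled with TMM and tested with edgeR 4.0.16 (robust quasi-likelihood, two-sided, R 4.3.3), with Benjamini-Hochberg adjustment over 13860 genes. CPM uses TMM-scaled totals. The SE is the size of the log2 fold change over the square root of F. Coordinates and lengths are from GENCODE 29, in which 58597 of 58870 identifiers were found. Single values were compared by exact permutation. Alternatives were DESeq2 1.42.0, limma 3.58.1 (voom), other scalings and filters, a replicate block, each library left out, a threshold of 0.01 and a test against a 1.5-fold change. The procedure was tested on simulated data in which few genes changed, each by about 1.5-fold or more, so smaller changes were not covered. Count floors cover counting error only, whereas the 95% intervals of log2 fold changes come from the edgeR fit and include the spread between libraries. The genes and lists were chosen with earlier results of these data known. Named from each list were the 2 called genes with the largest change, and for each tested gene the 1 most alike in pattern; some list genes are not reported here. Libraries within a group differed beyond sampling noise, so none was merged.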

Additional observations from a re-analysis of the deposited data

Results flagged for a closer look

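Of 68 groups of 4 libraries examined, 4 held a library far from the other 3, where chance gives about 3.4. ZEB2 had 0.061 CPM in control replicate 4 and 0 in the other control libraries, which is 1 count. CDH2 had 0.240 CPM in control replicate 3 and 0 in the others, from 4 counts. NECTIN4 had 18.4 CPM in ELAPOR1 replicate 1, where the others had 22.8 to 23.2. SYNM had 11.1 CPM in ELAPOR1 replicate 3, where the others had 9.40 to 9.65.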

How the results depend on the processing

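The calls of SNAI1, SNAI2, CDH1 and ESRP1 held under every alternative run except the test against a 1.5-fold change. Under that test, 215 genes were called (124 higher, 91 lower), 6 of the list genes (3 higher, 3 lower) and 0 of the 10 genes (0 higher, 0 lower; 1, SNAI1, at an unadjusted p under 0.05), whereas DESeq2 and limma without that fold each called 5. The log2 fold changes there were 1.05 for SNAI1 (adjusted p = 0.171), 0.65 for SNAI2, 0.42 for ZEB1, 0.11 for CDH1 and -0.23 for ESRP1. ZEB1 (0.42) also missed a threshold of 0.01 and ran from 0.316 to 0.511 with single libraries left out. The VIM difference ran from 0.22 to 0.353 CPM with single libraries left out, where 3 against 4 libraries cannot give an exact p below 0.0571. The CDH2 difference of -0.0266 CPM reversed to 0.0333 without control replicate 3 (range -0.0466 to 0.0333). Of 413 values of the 23 named list genes, 387 kept direction and call and 26 lost the call, 17 of them under the 1.5-fold test. MMP14 did not pass a filter of 10 counts in every library. For pairing, each library's deviations of log2 CPM from its group's gene means were correlated between groups. For same-numbered replicates these deviations, not the levels themselves, correlated at -0.003, -0.021, 0.033 and -0.012. No pairing by number was seen this way, though a small shared effect could be missed. With the replicate number as a block, 5926 genes and the same 5 of the 10 were called (SNAI1 1.05, SNAI2 0.65, ZEB1 0.42, CDH1 0.11, ESRP1 -0.23). Depth limits ZEB2, TWIST1, VIM and CDH2.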
